A study of Mus musculus with 9 samples.

Results

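Cholesterol and fatty acid synthesis was represented by 35 genes, of 35024 rows in the deposited expression table. They were chosen by name from the known pathways and not by their values, though with earlier results of these data known. They comprised 18 enzymes of the sterol branch, the sterol carrier Stard4, 5 genes that control the sterol regulatory element binding proteins (SREBPs), and 11 enzymes of the fatty acid branch. All 35 had a row and all 35 passed the filter on low values in both comparisons below. The cells were hepatic stellate cells, which store vitamin A beside the liver sinusoids and turn into scar-forming myofibroblasts in injury, sorted by retinoid fluorescence from mice on a C57BL/6J background. Every mouse carried floxed alleles of YAP, a transcriptional coactivator of the Hippo pathway, and had received carbon tetrachloride (CCl4), a liver toxin, 6 times at intervals of 3 days, with isolation 2 days after the last dose. The 5 control libraries (LYT004, LYT005, LYT014, LYT015 and LYT017) came from mice without Cre, and the 4 YAP-deleted libraries (LYT006, LYT008, LYT013 and LYT016) from mice with LratCre, in which the Lrat promoter drives Cre in stellate cells. By these labels Cre and the deletion of Yap1 came together, so their effects cannot be told apart. The measured Yap1 level went against the label in LYT013 and LYT014, as described below. No uninjured liver was in the comparison.

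Mammalian cells build cholesterol from acetyl-CoA through mevalonate, farnesyl diphosphate, squalene and lanosterol, and build fatty acids from the same precursor through malonyl-CoA. SREBP-2, made from Srebf2, mainly drives the sterol enzymes and SREBP-1, made from Srebf1, mainly the fatty acid enzymes. Scap carries both precursors from the endoplasmic reticulum to the Golgi when sterols are low, and Insig1 and Insig2 hold Scap back when sterols are high. Stellate cells keep retinyl esters in lipid droplets, which they lose as they become myofibroblasts.

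The deposited values are on a variance-stabilised scale, called log2-like here because it follows log2 for abundant genes and flattens towards its lowest value of 4.96 for rare ones. Undoing that transformation gave counts divided by a library size factor, called normalised counts. Total recovered counts ran from 14052502 in LYT017 to 31816055 in LYT013. The stellate marker list (11 genes) had a mean of 15.58 to 15.91 log2-like units in the 9 libraries. Its single genes varied more: their differences, YAP-deleted minus control as labelled, ran from -0.66 to 0.63. The libraries were also unlike in cell cycle genes. The mean of 18 such genes was 9.72 to 10.23 in LYT004, LYT005 and LYT008, 8.58 in LYT014 and 7.09 to 7.36 in the other 5. In bulk RNA a difference in the number of cells of one type and in RNA per cell cannot be told apart.

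Yap1 itself did not follow the labels in a pair of libraries. It stood at 2902, 2915, 3653 and 3551 normalised counts in the controls LYT004, LYT005, LYT015 and LYT017, but at 618 in LYT014, which is also labelled control. It stood at 642, 648 and 645 in LYT006, LYT008 and LYT016, but at 2530 in LYT013, which is also labelled YAP-deleted. Over all 9 libraries as labelled the difference was -1.30 log2-like units with a standard error (SE) of 0.54 (exact two-sided permutation p = 0.0794 over 126 regroupings). For each member described, the difference is therefore given for the 9 libraries as labelled and for the 7 without the libraries labelled LYT013 (YAP-deleted) and LYT014 (control). In those 7 the Yap1 difference was -2.22 ± 0.10 (SE). That value follows from leaving out libraries by their Yap1 level and is no check of the labels.

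No lipid synthesis gene differed between the groups past an adjusted p of 0.05 (limma with a mean-variance trend, Benjamini-Hochberg adjustment over all tested genes). The count was 0 of 35 in the 9 libraries, where 0 of 17203 genes passed (0%), and 0 of 35 in the 7 libraries, where 11 of 16372 passed (0.0672%). At an unadjusted limma p under 0.05 there were 2 members in the 9 libraries, Tm7sf2 and Srebf1, beside 1242 of all genes (7.22%). There were 3 in the 7 libraries, Srebf1, Srebf2 and Tm7sf2, beside 1050 of all genes (6.41%). The same model on recovered counts (voom) called 0 genes in the 9 libraries, with 1319 at an unadjusted p under 0.05. The members' share under that limit lay near that of all genes.

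The labelled groups did not overlap for 1 of 35 members in the 9 libraries, Tm7sf2, beside 2.84% of all genes tested. In the 7 libraries they did not overlap for 6 members, beside 7.59% of all genes: Sqle was lower with YAP deleted, and Lss, Tm7sf2, Srebf1, Srebf2 and Scap were higher. The median difference of the 18 sterol enzymes was 0.00 in the 9 libraries and 0.01 in the 7. That of the 11 fatty acid enzymes was 0.01 and 0.17, and that of the 5 SREBP genes 0.07 and 0.20. Without LYT006 the 7-library medians were 0.06 for the fatty acid enzymes and 0.13 for the SREBP genes, and without LYT015 that of the fatty acid enzymes was 0.10. Over all genes tested it was 0.00 in both. Differences were positive for 18 of 35 members in the 9 libraries and for 22 of 35 in the 7, where 48.9% of all genes were positive. In the 7 libraries the sterol enzymes were evenly divided, 9 positive and 9 negative, while 9 of the 11 fatty acid enzymes were positive.

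**Figure D1:**
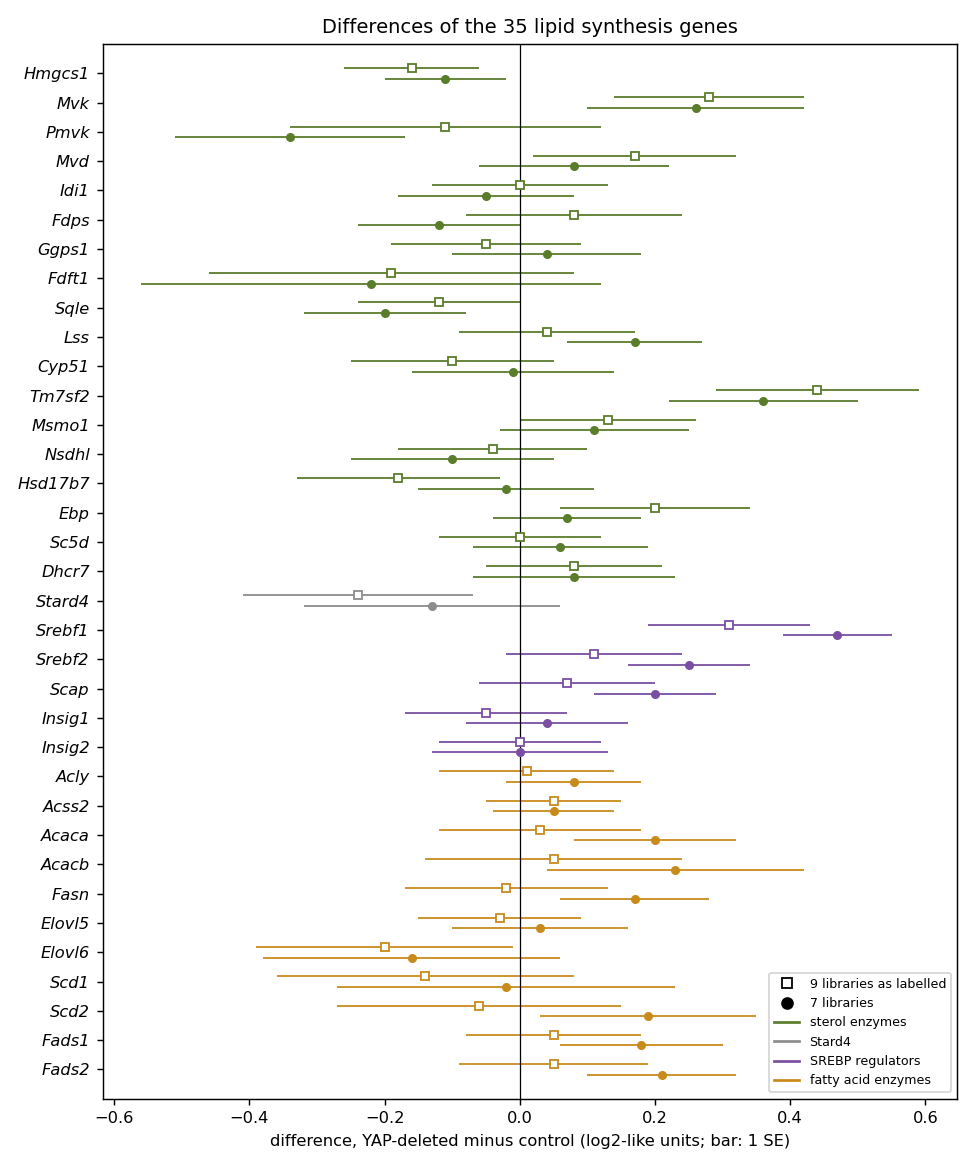
Difference between YAP-deleted and control libraries for each of the 35 genes, in log2-like units with bars of 1 SE; open squares are the 9 libraries as labelled, filled circles the 7 without LYT013 and LYT014, and colours mark the branch. Most sterol enzymes sit on either side of 0, and Srebf1 (0.47 in the 7 libraries) and Tm7sf2 (0.44 in the 9 libraries) lie farthest to the right.

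Srebf1, which encodes SREBP-1, was the member with the smallest p-value in the 7 libraries. It lies on the minus strand of chromosome 11 from 60199089 to 60222581 (GRCm38). Its normalised counts were 1548, 1590, 1452 and 1584 in the controls LYT004, LYT005, LYT015 and LYT017, and 2323, 2107 and 2050 in the YAP-deleted LYT006, LYT008 and LYT016. The lowest YAP-deleted library was thus above the highest of these controls, and the means were 1543 ± 63.5 (SD, n = 4) and 2160 ± 144 (SD, n = 3), the latter 40.0% above the former. The difference was 0.47 ± 0.08 (SE), with a limma p of 0.000273 that ranked 20 of 16372 genes and an adjusted p of 0.224, which missed the threshold. LYT014 read 1892, above the other controls, and LYT013 read 1633, below the other YAP-deleted libraries and just above the highest of those 4 controls. With both included under their labels the difference was 0.31 ± 0.12 (SE; limma adjusted p = 0.649). Within the libraries coded 4 to 8 (2 against 2) the difference was 0.48 ± 0.11 (limma, SE, adjusted p = 0.480). Within those coded 13 to 17 as labelled (3 controls, 2 YAP-deleted) it was 0.16 ± 0.19. Without LYT013 and LYT014 that range holds 1 YAP-deleted library, LYT016, against 2 controls, which gives no spread for the YAP-deleted group: 2050 against 1452 and 1584 normalised counts. The table has 1 row per gene, so the 1a and 1c forms of SREBP-1, which start at different promoters, were not separated.

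Srebf2, which encodes SREBP-2, read 961, 1022, 1145 and 1015 in the controls LYT004, LYT005, LYT015 and LYT017 and 1373, 1161 and 1193 in LYT006, LYT008 and LYT016. The groups were adjacent, 1145 against 1161, and the difference was 0.25 ± 0.09 (SE, limma adjusted p = 0.726). LYT014 read 1101 and LYT013 read 859, the lowest of the 9, and with them the difference was 0.11 ± 0.13. Scap, the escort of both SREBPs, read 1094, 1076, 1024 and 950 in the same controls and 1314, 1180 and 1100 in the same YAP-deleted libraries. Here too the groups met without overlapping, with a difference of 0.20 ± 0.09 (limma adjusted p = 0.781). LYT013 was again lowest at 816, and LYT014 read 1029. The difference over 9 libraries was 0.07 ± 0.13.

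The Insig genes, which retain Scap, overlapped throughout. Insig1 read 236, 293, 295, 245 and 253 in the 5 controls and 274, 223, 220 and 304 in the 4 YAP-deleted libraries (in the order LYT004, LYT005, LYT014, LYT015, LYT017 and then LYT006, LYT008, LYT013, LYT016, an order kept below). Its difference was -0.05 ± 0.12 (SE) in the 9 libraries and 0.04 ± 0.12 in the 7. Insig2 read 655, 579, 795, 752 and 838 in the controls and 740, 621, 783 and 742 in the YAP-deleted libraries. Its lowest and highest values were both in controls, and its difference was 0.00 ± 0.12 in the 9 libraries and 0.00 ± 0.13 in the 7. Of the 5 SREBP genes, Srebf1, Srebf2 and Scap thus carried the positive median of the 7 libraries, and the Insig genes were near 0.

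**Figure D2:**
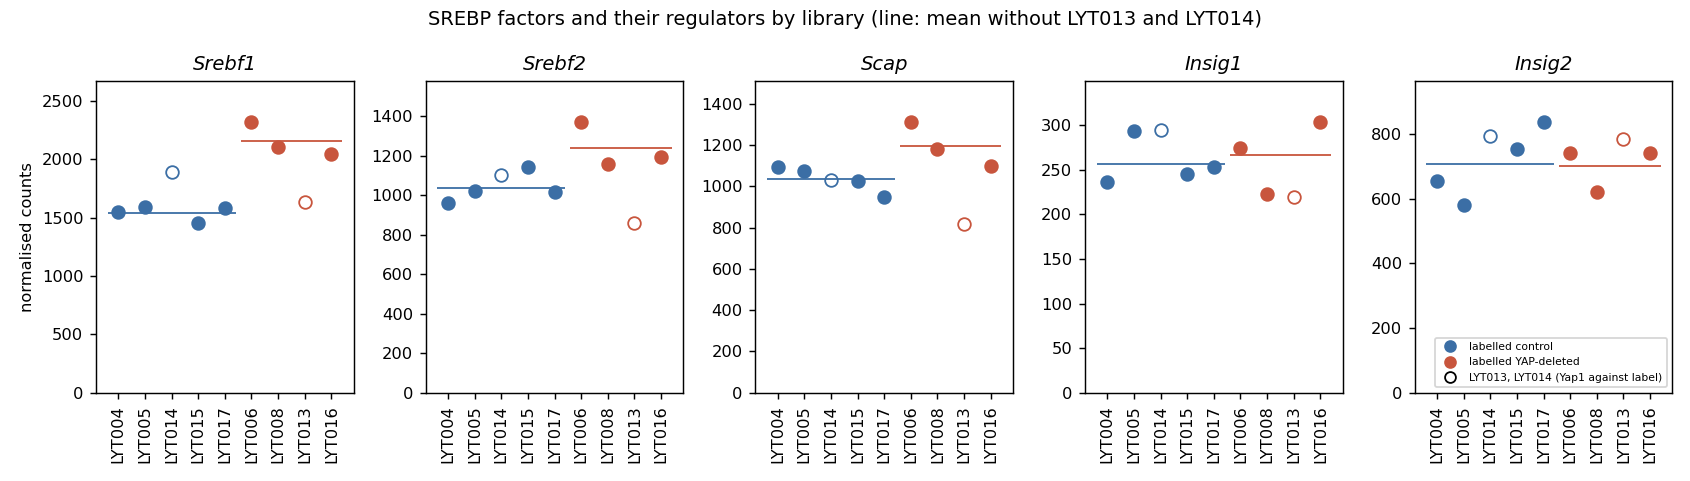
Normalised counts of Srebf1, Srebf2, Scap, Insig1 and Insig2 in each library (vertical axes from 0); blue is labelled control, red labelled YAP-deleted, open circles are LYT013 and LYT014, and lines are group means without those 2 libraries. Srebf1 in LYT006, LYT008 and LYT016 (2050 to 2323) is above every control, while LYT013 (1633) is not.

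Tm7sf2, a sterol C14 reductase, was the only member whose labelled groups did not overlap in either comparison. It read 81.0, 44.2, 76.2, 70.7 and 72.5 normalised counts in the controls and 100, 94.4, 147 and 101 in the YAP-deleted libraries. LYT005 was the lowest control and LYT013 the highest YAP-deleted library. The difference was 0.44 ± 0.15 (SE, limma adjusted p = 0.649) over 9 libraries and 0.36 ± 0.14 (adjusted p = 0.740) over 7. At such low counts the log2-like scale understates folds: the mean of the counts was 60.7% higher over 9 libraries. In GENCODE M21 its exons share 532 bases with those of Vps51 on the same strand, so reads there could be assigned to either gene. Vps51, a subunit of vesicle tethering complexes, read 439 to 637 in the controls and 607 to 633 in the YAP-deleted libraries (difference 0.24 ± 0.11 over 9 libraries and 0.18 ± 0.10 over 7, SE).

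The early mevalonate enzymes showed no common direction. Hmgcs1, which makes HMG-CoA, read 505, 451, 486, 543 and 516 in the controls and 468, 475, 386 and 443 in the YAP-deleted libraries. Only LYT005 of the controls fell among the YAP-deleted values, and the difference was -0.16 ± 0.10 (SE) over 9 libraries and -0.11 ± 0.09 over 7. Mevalonate kinase, Mvk, read 227, 278, 213, 166 and 197 in the controls and 262, 309, 287 and 235 in the YAP-deleted libraries. All but LYT005 of the controls lay below the YAP-deleted values, and the differences were 0.28 ± 0.14 and 0.26 ± 0.16. Phosphomevalonate kinase, Pmvk, had negative differences, -0.11 ± 0.23 over 9 libraries and -0.34 ± 0.17 over 7. It read 123, 109, 71.6 and 73.9 in the controls against 49.6, 81.6 and 60.1, with 97.9 in LYT014 and the highest value, 174, in LYT013. None of the 3 passed the limma test. Mvd, the decarboxylase that ends this stretch, read 53.0 to 109 in controls and 84.3 to 107 in YAP-deleted libraries (0.17 ± 0.15 over 9 libraries and 0.08 ± 0.14 over 7).

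The isoprenoid and squalene steps came next. Idi1, which isomerises isopentenyl diphosphate, ranged from 74.6 to 121 with a difference of 0.00 ± 0.13 (SE) over 9 libraries and -0.05 ± 0.13 over 7. Fdps, the farnesyl diphosphate synthase, read 107 to 150 in 8 libraries and 212 in LYT013 (0.08 ± 0.16 over 9 libraries and -0.12 ± 0.12 over 7). Its exons share 1124 bases with a same-strand gene model, Gm43738, so its reads may be split. Ggps1, which makes geranylgeranyl diphosphate for protein prenylation, read 866 to 1316 normalised counts (difference -0.05 ± 0.14 over 9 libraries and 0.04 ± 0.14 over 7). Sqle, the squalene epoxidase, read 75.6, 85.9, 101 and 76.6 in LYT004, LYT005, LYT015 and LYT017 and 75.0, 70.2 and 57.6 in LYT006, LYT008 and LYT016. Those groups were adjacent, 75.6 against 75.0. LYT013 at 93.9 and LYT014 at 83.5 both lay within the range of those controls (difference -0.12 ± 0.12 over 9 libraries and -0.20 ± 0.12 over 7).

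After squalene, Lss, the cyclase that makes lanosterol, read 140, 152, 140 and 136 in the controls LYT004, LYT005, LYT015 and LYT017 and 164, 154 and 183 in LYT006, LYT008 and LYT016. LYT013 was lowest at 107 and LYT014 read 156 (difference 0.17 ± 0.10 over 7 libraries and 0.04 ± 0.13 over 9, SE). The remaining members were the lanosterol demethylase Cyp51, the demethylation enzymes Msmo1, Nsdhl and Hsd17b7, the isomerase Ebp, and Sc5d and Dhcr7, which act near the end of the pathway. Their differences in the 7 libraries ran from -0.10 (Nsdhl) to 0.11 (Msmo1), each smaller than its SE, and in the 9 libraries from -0.18 ± 0.15 (Hsd17b7) to 0.20 ± 0.14 (Ebp). Ebp read 229 to 300 in 8 libraries and 389 in LYT013. Summed over the 18 sterol enzymes, normalised counts were close in all 9 libraries, 3720 in LYT004 to 3995 in LYT005, and LYT013 and LYT014 lay within that range at 3884 and 3807.

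The summed counts of the fatty acid branch were less even between libraries. Over its 11 enzymes they ran from 11393 in LYT013 to 17740 in LYT006. Gene by gene the branches were close: the median SD over the 9 libraries was 0.23 log2-like units, against 0.21 for the sterol enzymes. Acly, which makes cytosolic acetyl-CoA from citrate, read 1795, 1754, 1721, 2122 and 2068 in the controls and 2181, 1870, 1511 and 2108 in the YAP-deleted libraries (difference 0.01 ± 0.13 over 9 libraries and 0.08 ± 0.10 over 7, SE). Acss2, which makes it from acetate, had the narrowest range of the members: 227, 209, 226, 217 and 246 in the controls and 240, 228, 232 and 235 in the YAP-deleted libraries (0.05 ± 0.10 over 9 libraries and 0.05 ± 0.09 over 7). Acaca, the main cytosolic acetyl-CoA carboxylase, read 1189, 913, 1155, 1065 and 1002 in the controls and 1281, 1032, 777 and 1320 in the YAP-deleted libraries. Fasn, the fatty acid synthase, read 2005, 2123, 2272, 1862 and 1868 in the controls and 2659, 2028, 1464 and 2015 in the YAP-deleted libraries. For both, LYT013 was the lowest of the 9 libraries. Their differences were 0.03 ± 0.15 and -0.02 ± 0.15 over 9 libraries, and 0.20 ± 0.12 and 0.17 ± 0.11 over the 7. LYT006 held the highest Fasn value, and without it the 7-library difference for Fasn was 0.04 ± 0.10 (limma, SE).

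The elongases and desaturases shape the chains that Fasn makes. Fads2, a desaturase of polyunsaturated fatty acids, had the smallest p of this branch in the 7 libraries. It read 1286, 1495, 1185 and 1297 in the controls LYT004, LYT005, LYT015 and LYT017 and 1491, 1749 and 1357 in LYT006, LYT008 and LYT016, and these overlapped (0.21 ± 0.11, SE, limma adjusted p = 0.799). LYT014 read 1415 and LYT013 1032, the lowest, and with them the difference was 0.05 ± 0.14. Fads1, its partner, read 2248, 2214, 2229, 1711 and 1918 in the controls and 2486, 2303, 1745 and 2067 in the YAP-deleted libraries (0.05 ± 0.13 over 9 libraries and 0.18 ± 0.12 over 7). Scd2, one of the enzymes that place the first double bond, read 5562, 4866, 5158, 3362 and 4297 in the controls and 5190, 5428, 2814 and 4634 in the YAP-deleted libraries, with LYT013 lowest. Its difference was -0.06 ± 0.21 over 9 libraries and 0.19 ± 0.16 over the 7 without LYT013 and LYT014. Elovl6, which lengthens palmitate to stearate, was scattered in both groups, 211, 245, 283, 303 and 132 against 156, 171, 202 and 242 (-0.20 ± 0.19 over 9 libraries, the smallest p of the branch there, and -0.16 ± 0.22 over 7). Elovl5, an elongase of polyunsaturated chains, read 1317, 1468, 1243, 1161 and 1026 in the controls and 1211, 1410, 1079 and 1167 in the YAP-deleted libraries (-0.03 ± 0.12 over 9 libraries and 0.03 ± 0.13 over 7). Acacb, the carboxylase tied to mitochondria, read 414, 308, 380, 267 and 220 in the controls and 397, 393, 243 and 288 in the YAP-deleted libraries (0.05 ± 0.19 and 0.23 ± 0.19). The groups overlapped for both genes.

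The 35 genes were about as variable as other genes. Their SD over the 9 libraries had a median of 0.21 log2-like units, against 0.22 over 17201 tested gene names and 1.45 over the 18 cell cycle genes. The widest ranges belonged to Fdft1 (3.65-fold), Pmvk (3.50-fold) and Tm7sf2 (3.33-fold) in the sterol branch and to Elovl6 (2.31-fold), Scd1 (2.22-fold) and Scd2 (1.98-fold) in the fatty acid branch.

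**Figure D3:**
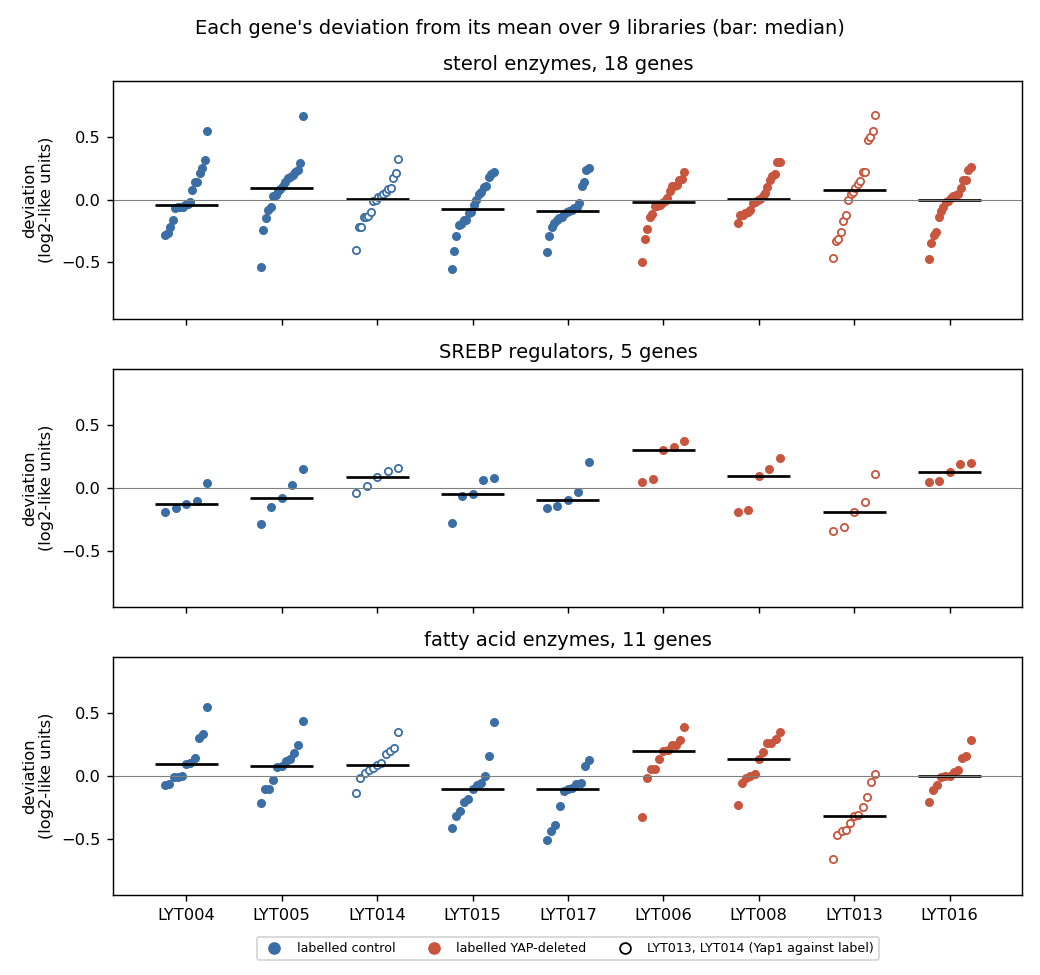
Deviation of each gene from its own mean over the 9 libraries, in log2-like units, for the 18 sterol enzymes, 5 SREBP genes and 11 fatty acid enzymes; points are genes, bars are library medians, and open points are LYT013 and LYT014. Fatty acid enzymes are lowest in LYT013 (median -0.32) and highest in LYT006 (0.20), while sterol enzyme medians stay between -0.09 and 0.10.

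Fdft1, squalene synthase, had the widest range, and its spread lay within the groups more than between them. It read 158, 175, 109, 48.1 and 56.4 in the controls and 64.6, 124, 96.9 and 53.4 in the YAP-deleted libraries. The 3 highest values were in LYT004, LYT005 and LYT008, the libraries with the highest cell cycle means (9.82, 10.23 and 9.72), and the next in LYT014 (8.58). Scd1, the other delta-9 desaturase, read 653, 600, 445, 330 and 313 in the controls and 449, 540, 294 and 362 in the YAP-deleted libraries, and was also highest in those 3 libraries. Stard4, a soluble carrier of sterols between membranes, read 67.1, 63.8, 72.2, 28.3 and 32.2 against 42.7, 42.1, 30.5 and 30.9, with the highest values in LYT014, LYT004 and LYT005 (-0.24 ± 0.17 over 9 libraries and -0.13 ± 0.19 over 7, SE). These 3 genes were set beside the cell cycle list after their values were seen, and the part of cell cycle activity in their levels was not tested. With the cell cycle mean as a covariate the 7-library difference of Fdft1 was -0.03 ± 0.11 (SE) in place of -0.22 ± 0.34, and that of Scd1 was 0.12 ± 0.11 in place of -0.02 ± 0.25. The 9-library difference was 0.06 ± 0.15 in place of -0.19 ± 0.27 for Fdft1 and 0.06 ± 0.13 in place of -0.14 ± 0.22 for Scd1. Scd1 also divided by library code: 449 to 653 in the libraries coded 4 to 8 and 294 to 445 in those coded 13 to 17. With code range as a covariate its difference was -0.13 ± 0.12 (SE) over 7 libraries and -0.21 ± 0.13 over 9. For Fdft1 it was -0.36 ± 0.19 and -0.25 ± 0.22. The part of code range was not tested either.

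**Figure D4:**
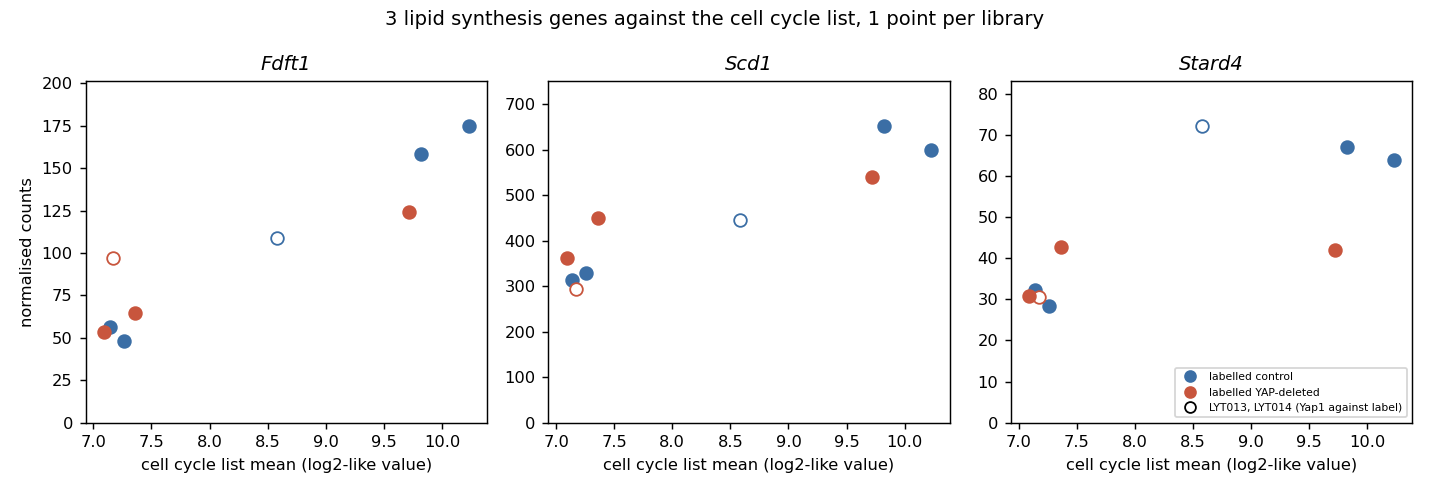
Normalised counts of Fdft1, Scd1 and Stard4 (vertical axes from 0) against the mean log2-like value of 18 cell cycle genes, 1 point per library; blue is labelled control, red labelled YAP-deleted, and open points are LYT013 and LYT014. The libraries with the highest cell cycle means, LYT004, LYT005 and LYT008, have the 3 highest values of Fdft1 (124 to 175) and Scd1 (540 to 653), but LYT008 is low for Stard4 (42.1).

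LYT013 differed from the other libraries by transcript length over all genes tested, and the lipid synthesis genes followed that. LYT013 held the lowest value of 13 members and the highest of 5. The share of all genes with an extreme in LYT013 was not counted. Counts of members with such an extreme, here and below, therefore cannot be read as particular to them. Among members with transcripts in the longest class of all genes (above 3447 bases, 11 genes) all 11 were below the mean of the other 8 libraries, with a median of -0.37 log2-like units. Among the 8 in the shortest class (up to 2021 bases) 7 were above it, with a median of 0.39. All tested genes showed the same order, with medians of 0.31, 0.01 and -0.31 from the shortest to the longest class. Among them 4069 of 5230 in the shortest class were above and 4060 of 5226 in the longest were below. Stard4 was the exception among the short members. Its median transcript of 941 bases was the shortest of the 35, and LYT013 was 0.28 units below the other libraries. LYT013 was below all other libraries for 6 of the 11 fatty acid enzymes (Acly, Acaca, Fasn, Scd1, Scd2 and Fads2). It was also below them for 3 of the 5 SREBP genes (Srebf2, Scap and Insig1). Of the sterol enzymes it was above all others for 5 (Pmvk, Fdps, Tm7sf2, Nsdhl and Ebp) and below for 4 (Hmgcs1, Ggps1, Lss and Hsd17b7). With a smooth trend of each library's values on length removed, an alternative chosen after seeing the data, the 9-library difference of Srebf1 was 0.39 ± 0.09 (SE, limma adjusted p = 0.670) and that of Fasn 0.23 ± 0.11.

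**Figure D5:**
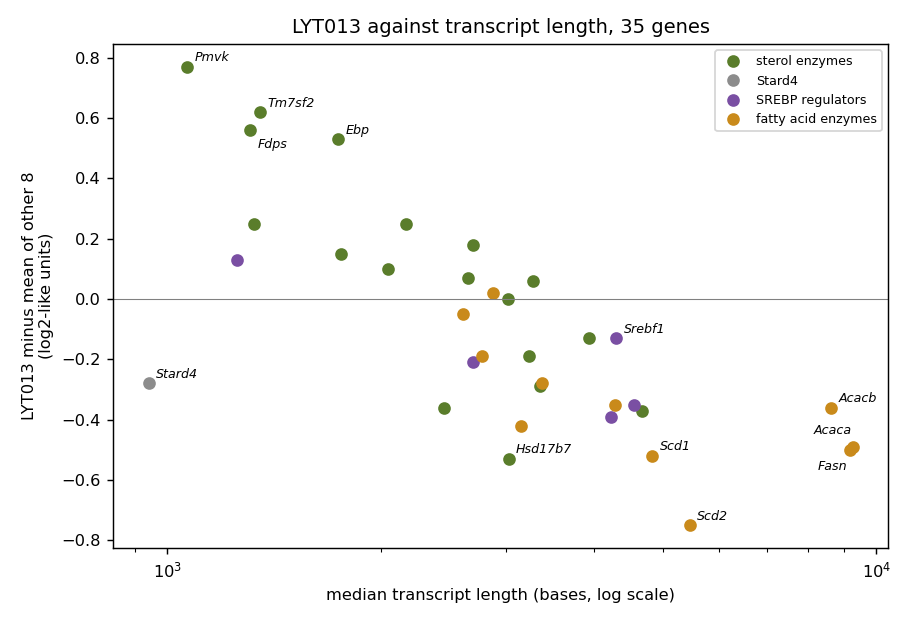
LYT013 minus the mean of the other 8 libraries (log2-like units) against the median transcript length of each of the 35 genes (bases, log scale), coloured by branch. Short sterol-branch transcripts such as Pmvk (0.77) lie above 0 and long fatty acid branch transcripts such as Scd2 (-0.75) below, with Stard4 (-0.28) apart.

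Levels of different genes were compared per kilobase of transcript. On that scale of mean normalised counts per kilobase, Scd2 was highest at 841, followed by Fads1 at 622, Insig2 at 577, Ggps1 at 450 and Acly at 445. The lowest were Cyp51 at 25.1, Sqle at 29.6 and Fdft1 at 30.0, all enzymes of the sterol branch. Paralog pairs kept their order in all 9 libraries. Scd2 exceeded Scd1 by 9.33-fold on average (log2 ratio per kilobase of Scd1 to Scd2 from -3.60 to -2.85), and Insig2 exceeded Insig1 by 5.98-fold. The Insig ratio depends on the lengths taken, 1252 bases for Insig2 (median of 5 transcripts) and 2697 for Insig1 (1 transcript). Srebf1 exceeded Srebf2 by 1.74-fold, Acaca exceeded Acacb by 3.15-fold, Elovl5 exceeded Elovl6 by 5.49-fold and Fads1 exceeded Fads2 by 1.44-fold. Scd1 and Scd2 are close in sequence and lie near each other on chromosome 19, so the authors' counting could have split some of their reads. In GENCODE M21 the exons of Acss2, Cyp51, Elovl6, Fdft1, Ggps1, Hmgcs1, Idi1, Lss, Scap and Srebf1 overlap exons on the opposite strand, and reads of such partners cannot be told apart if the counting ignored strand. The Srebf1 to Srebf2 log2 ratio was 0.66 ± 0.16 (SD, n = 4) in the controls and 0.88 ± 0.05 (SD, n = 3) in the YAP-deleted libraries of the 7, with 0.87 in LYT014 and 1.01 in LYT013.

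The promoters of these genes were read from RefSeq (GRCm38.p6; 250 bases before to 50 after a start), which had an entry for 28 of the 35. Letters were searched on both strands, and a gene counted when any of its promoters held them. The NF-Y box CCAAT was in 24 of 28 (85.7%) against 41.1% of 27025 genes: in all 15 sterol enzymes with an entry, 4 of 5 SREBP genes (not Scap) and 5 of 8 fatty acid enzymes (not Acaca, Elovl6 or Fads2). By single windows it was in 37.4% of 32851 promoters. The SP1 box GGGCGG was in 21 of 28 (75.0%) against 38.2% of genes and 35.7% of promoters. By branch it was in 13 of 15 sterol enzymes, 5 of 5 SREBP genes and 3 of 8 fatty acid enzymes (37.5%), the last near the share of all genes. The sterol response type sequence TCACNCCAC was in 1 of 28 (3.57%), Hmgcs1, against 1.44% of genes and 1.24% of promoters, and the E-box TCACGTGA in 0 of 28 against 1.12% and 0.974%. Only the exact letters were searched, with N as any base, so near matches such as TCACCCCAT before Srebf2 were not counted. SREBPs are known to act on sterol enzyme promoters together with NF-Y or SP1. The 200 bases before 4 starts are shown 5′ to 3′ on the gene's own strand, because they give the sole TCACNCCAC match, the richest CCAAT array printed and the promoters of the SREBP-1 gene and the fatty acid synthase. Capitals mark CCAAT, its reverse complement, or TCACNCCAC. The windows are chr13:119690151-119690350 (plus strand) for Hmgcs1, chr5:114444069-114444268 (plus) for Mvk, chr11:60210472-60210671 (minus) for one of the Srebf1 starts and chr11:120824548-120824747 (minus) for Fasn.
Hmgcs1: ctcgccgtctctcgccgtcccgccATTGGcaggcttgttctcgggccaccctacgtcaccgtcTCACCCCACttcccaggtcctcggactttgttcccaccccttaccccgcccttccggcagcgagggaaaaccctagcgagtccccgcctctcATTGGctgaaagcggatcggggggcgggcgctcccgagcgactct
Mvk: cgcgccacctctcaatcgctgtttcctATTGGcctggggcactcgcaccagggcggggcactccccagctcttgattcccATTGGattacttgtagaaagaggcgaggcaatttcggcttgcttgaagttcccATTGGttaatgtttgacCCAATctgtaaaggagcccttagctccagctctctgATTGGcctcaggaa
Srebf1: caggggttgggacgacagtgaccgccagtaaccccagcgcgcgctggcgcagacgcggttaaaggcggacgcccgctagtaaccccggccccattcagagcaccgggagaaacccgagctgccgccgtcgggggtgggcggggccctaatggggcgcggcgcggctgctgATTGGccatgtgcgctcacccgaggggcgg
Fasn: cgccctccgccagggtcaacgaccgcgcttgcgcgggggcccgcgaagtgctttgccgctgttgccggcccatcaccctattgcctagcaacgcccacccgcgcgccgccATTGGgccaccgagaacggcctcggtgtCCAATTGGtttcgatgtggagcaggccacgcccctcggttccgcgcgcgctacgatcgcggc
Hmgcs1 has 2 marked CCAAT boxes, Mvk 5, this Srebf1 start 1 and Fasn 3. A match describes the letters only.

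Genes around the pathway were described from 7 lists of 12 to 17 genes, and 0 passed the adjusted limma threshold in either comparison. In the list of sterol uptake and related steps, Scarb1, a receptor for high-density lipoprotein, read 1606 to 2076 in the controls and 2172 to 2384 in the 4 YAP-deleted libraries. It did not overlap between the labelled groups (0.29 ± 0.10 over 9 libraries, SE, limma adjusted p = 0.649; 0.31 ± 0.10 over 7, adjusted p = 0.629). Of the oxysterol list, Nr1h2, a receptor that turns on sterol efflux genes, read 1272 to 1512 in the controls and 1565 to 1969 in the YAP-deleted libraries (0.31 ± 0.10 over 9 libraries, limma adjusted p = 0.649, and 0.27 ± 0.09 over 7). Apoe, a protein of lipoprotein particles, differed by 0.57 ± 0.27 over 9 libraries and 0.43 ± 0.27 over 7. Abcg1, an efflux transporter, differed by 0.10 ± 0.18 and 0.28 ± 0.17. Of the genes that process SREBPs, Sec24a, a coat protein of vesicles leaving the endoplasmic reticulum, differed by -0.50 ± 0.21 over 9 libraries and -0.21 ± 0.09 over 7. Sec23a of the same coat differed by -0.32 ± 0.16 over 9 libraries and -0.13 ± 0.07 over 7.

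The list of other fatty acid synthesis genes had 11 positive differences among 16 tested over 9 libraries, and 10 among 15 over the 7. Tecr differed by 0.35 ± 0.13 (SE) over 9 libraries and 0.25 ± 0.11 over 7, Slc25a1 by 0.24 ± 0.13 and 0.22 ± 0.14, and Hacd3 by 0.15 ± 0.09 and 0.19 ± 0.08. Tecr and Hacd3 act in the elongation cycle of very long chains, and Slc25a1 exports citrate from mitochondria. Among glyceride and lipid droplet genes Pnpla2, the first lipase of stored fat, differed by 0.30 ± 0.10 over 9 libraries and 0.28 ± 0.11 over 7. Mgll, the last, differed by 0.46 ± 0.17 and 0.43 ± 0.20, and Dgat1, which completes triglyceride synthesis, by 0.26 ± 0.14 and 0.26 ± 0.11. For protein prenylation, Rabggta differed by 0.26 ± 0.13 over 9 libraries and 0.15 ± 0.10 over 7, Pggt1b by -0.55 ± 0.29 and -0.21 ± 0.11, and Icmt by 0.07 ± 0.11 and 0.14 ± 0.09. Cpt1a, which admits fatty acids to mitochondria for oxidation, read 2549, 2505, 2682 and 2586 in the controls LYT004, LYT005, LYT015 and LYT017 and 1926, 2104 and 1921 in LYT006, LYT008 and LYT016. These groups did not overlap, and the difference was -0.37 ± 0.07 (SE, limma adjusted p = 0.374). LYT014 read 1907 and LYT013 1356, the lowest, giving -0.42 ± 0.15 over 9 libraries (limma adjusted p = 0.649). In that oxidation list Ppard, a nuclear receptor for fatty acids, differed by 0.17 ± 0.10 over 9 libraries and 0.26 ± 0.09 over 7, and Acadvl by 0.21 ± 0.12 and 0.05 ± 0.07.

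Markers of other liver cells were present and moved between libraries, and their part in the lipid gene results was not tested. The mean of 10 hepatocyte genes was 6.21 to 6.98 log2-like units in the controls and 6.49 to 7.04 in the YAP-deleted libraries, lowest in LYT014 and highest in LYT013. That of 10 macrophage genes was 6.40 to 7.43 and 6.81 to 7.89. That of 8 endothelial genes was 6.70 (LYT005) to 8.72 (LYT014) in the controls and 7.14 to 7.95 in the YAP-deleted libraries. Of 6 adipocyte genes, only Lep and Retn were at 0 counts in all 9 libraries. Summed over the 6, normalised counts ran from 0.0 in LYT017 to 8.93 in LYT008. With the hepatocyte mean as a covariate the 7-library difference of Srebf1 was 0.46 ± 0.08 (SE, limma adjusted p = 0.161), with the macrophage mean 0.48 ± 0.07 (adjusted p = 0.0738), and with the cell cycle mean 0.47 ± 0.08 (adjusted p = 0.0555). Over the 9 libraries the Srebf1 difference was 0.36 ± 0.10 (SE, limma adjusted p = 0.724) with the hepatocyte mean. It was 0.32 ± 0.13 (limma adjusted p = 0.6) with the macrophage mean and 0.33 ± 0.13 (limma adjusted p = 0.634) with the cell cycle mean. None of these fits passed the threshold.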

How the data were processed

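RNA-seq of 9 libraries of sorted stellate cells was deposited as 1 table. Its log2-like values were made by the authors and deposited without counts; the table's name marks them as variance-stabilised. The submitters' processing notes list bcl2fastq 2.20, kallisto 0.44.0, sleuth, GRCh38, GRCm38 and mm10, with no roles. The labels' protocols describe poly-A selection and ribosomal depletion, without saying which library had which, or that each library is a separate mouse. P-values then measure the spread between these libraries, which may be technical. The column LYT013.1 was taken as LYT013.

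Counts were recovered by inverting the transformation, and 100.0% came out whole within 0.1. Genes that exceeded the floor of the scale in 4 or more libraries of a comparison were tested with limma 3.58.1 (R 4.3.3, trend) and adjusted by Benjamini-Hochberg at 0.05. The procedure was tested on simulated data. Transcript lengths are medians over GENCODE M21 (GRCm38). The members and lists were chosen with earlier results of these data known, as was the comparison without LYT013 and LYT014. All members are named; values in every library are given for the 3 with the smallest p or the widest range in each branch, for paralogs, and for others chosen after their values were seen. Of each other list, the 2 genes with the smallest p in each comparison are named; 2 of these genes are not reported here. Alternatives were other filters, scalings, transformations, voom, array weights, library code range and cell-state covariates, and leaving out each library.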

Additional observations from a re-analysis of the deposited data

Results flagged for a closer look

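Among 70 groups of values checked (35 genes in 5 control and 4 YAP-deleted libraries), 2 had a library far from the others, both for Tm7sf2. Chance flags about 1 group in 20. In the controls, LYT005 had a log2-like value of 6.59 (44.2 normalised counts), while the other 4 lay between 6.97 and 7.09. In the YAP-deleted group, LYT013, whose Yap1 goes against its label, had 7.68 (147 normalised counts), while the other 3 lay between 7.23 and 7.29.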

How the results depend on the processing

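Over 24 alternatives for the 9 libraries and 22 for the 7, 0 members passed the adjusted threshold. The lowest adjusted p was 0.341 (array weights) and 0.0555 (cell cycle covariate), both for Srebf1, whose difference ran from 0.16 to 0.48 and from 0.42 to 0.51. Its adjusted p ran up to 0.836 and 0.999. Signs changed for 22 members in the 9 libraries (108 of 827 values) and for 17 in the 7 (59 of 753), and in none of them did both values exceed their SE. The 9-library median of the SREBP genes moved from 0.07 to 0.21 with array weights, -0.06 within LYT013 to LYT017 and 0.20 in the 7 libraries; leaving out 1 library gave -0.01 to 0.20, highest without LYT013. The sterol enzyme median was 0.14 within LYT013 to LYT017. The 7-library fatty acid median was 0.06 without LYT006 and up to 0.18 without others. Genes called among all in the 9 libraries rose from 0 to 1 higher within codes 4 to 8. In the 7 libraries 3 were higher and 8 lower; this became 7 and 18 with code range, 11 and 25 with the cell cycle mean, 9 and 17 with the macrophage mean, 1 and 2 within codes 4 to 8, 0 and 0 within LYT015 to LYT017 (820 unadjusted, with 1 YAP-deleted library assumed to vary like the controls), and 5 lower with only the more abundant genes tested or the length trend removed. Leaving out 1 library gave 1 to 3 higher and 1 to 7 lower. The cause of these moves was not tested, except that subsets have fewer libraries. No paired analysis was possible because the library codes are unique to each sample.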
